A study of Mus musculus with 6 samples.

Results

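Accessible chromatin near the olfactory and vomeronasal receptor genes of the mouse was described here from the ATAC-seq peaks of 2 lines of embryonic stem cells. A peak was a member when it lay on an autosome and within 50 kb of the body of a gene whose name starts with Olfr, Vmn1r or Vmn2r in the GENCODE annotation for mm9. That rule gave 314 of the 21698 autosomal peaks of the wild-type (WT) list, out of 22753 peaks on all chromosomes. In the Spen KO clone 3 list it gave 371 of 22457 autosomal peaks, out of 23722. Members with an overlap of 1 bp or more in the other list are named shared here, and the rest carry the name of their list, WT-only or Spen KO clone 3-only.

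The cells were HATX haploid mouse embryonic stem cells on a mixed genomic background, grown in serum and LIF, all carrying an X-linked Xist transgene that doxycycline induces. Spen, an RNA-binding repressor that Xist needs for silencing, was intact in HATX WT and deleted for most of its length in Spen KO. The 6 samples comprised HATX WT, Spen KO clone 2 and Spen KO clone 3, each without doxycycline and with 2 ug/ml for 48 hours. Peaks were given as 1 list for HATX WT and 1 for Spen KO clone 3, and clone 2 was not analysed here. Each list joined 2 technical replicates, its doxycycline state is not stated, and the Spen KO line is a single clone, so effects of the deletion and of the clone cannot be told apart. No test between lines was possible, and all intervals below are 95% intervals that cover counting error only. The depth of the libraries is unknown.

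Olfactory receptors (Olfr) are the odorant receptors of the main olfactory epithelium, and vomeronasal receptors of types 1 and 2 (Vmn1r, Vmn2r) detect pheromones and other chemical signals in the vomeronasal organ. All are G protein-coupled receptors whose genes stand in tandem clusters, and a mature olfactory neuron expresses essentially a single Olfr gene while the rest are kept in heterochromatin. In other cell types, embryonic stem cells among them, the clusters are largely silent and lie in AT-rich sequence that holds many LINE-1 retrotransposons.

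Of the 1678 autosomal receptor genes, 1243 were Olfr, 256 Vmn1r and 179 Vmn2r, and 1433 were annotated as coding. Their bodies with 50 kb on each side merged into 156 territories of 57.9 Mb of sequence. The name "cluster" fitted most but not all of them, since 1516 receptors stood in 69 territories of 5 or more genes, 37 territories held 2 to 4 and 50 held a single receptor. Accordingly 203 of the 314 WT peaks and 265 of the 371 Spen KO clone 3 peaks lay in territories of 5 or more receptors. As a check of the cell type, the promoters of Pou5f1, Zfp42 and Utf1, genes of pluripotent cells, held a peak in both lists. Sox2 had a peak in the WT list and Klf4 in the Spen KO clone 3 list, while Nanog, Esrrb, Tdgf1 and Dppa5a had none in either and Tfcp2l1 was not in the annotation, so the lists do not hold every active promoter.

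Many member peaks carried sequence that recurs across the genome, and the sequences of 7 such peaks are shown because they represent the families that hold the results below. Each is the plus strand of mm9 over the 300 bases around the midpoint of the peak, 5′ to 3′, and capitals mark bases in 24-base sequences that occur at least 10 times in the genome. The 7 are the peaks among the 5 of highest score in each class that fell in a sequence family.
Spen KO clone 3-only peak near Vmn2r57, chr7:48684731-48685030: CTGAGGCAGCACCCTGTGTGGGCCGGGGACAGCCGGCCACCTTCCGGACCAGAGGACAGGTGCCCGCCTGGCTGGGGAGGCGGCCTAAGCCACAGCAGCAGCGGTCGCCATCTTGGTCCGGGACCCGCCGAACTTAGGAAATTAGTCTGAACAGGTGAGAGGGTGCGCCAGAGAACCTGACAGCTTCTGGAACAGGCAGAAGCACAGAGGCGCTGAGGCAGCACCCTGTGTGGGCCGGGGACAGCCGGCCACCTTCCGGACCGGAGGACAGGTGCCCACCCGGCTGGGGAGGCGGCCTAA
WT-only peak near Vmn2r58, chr7:49071225-49071524: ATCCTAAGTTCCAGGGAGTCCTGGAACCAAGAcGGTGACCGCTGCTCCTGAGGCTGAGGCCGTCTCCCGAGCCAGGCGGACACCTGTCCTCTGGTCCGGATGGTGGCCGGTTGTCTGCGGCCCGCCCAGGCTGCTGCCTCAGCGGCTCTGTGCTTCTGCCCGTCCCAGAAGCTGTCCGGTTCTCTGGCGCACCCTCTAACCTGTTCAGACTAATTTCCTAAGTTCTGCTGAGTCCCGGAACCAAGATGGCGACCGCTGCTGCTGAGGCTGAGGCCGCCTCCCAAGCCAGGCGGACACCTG
shared peak near Vmn2r-ps100, chr13:66051319-66051618: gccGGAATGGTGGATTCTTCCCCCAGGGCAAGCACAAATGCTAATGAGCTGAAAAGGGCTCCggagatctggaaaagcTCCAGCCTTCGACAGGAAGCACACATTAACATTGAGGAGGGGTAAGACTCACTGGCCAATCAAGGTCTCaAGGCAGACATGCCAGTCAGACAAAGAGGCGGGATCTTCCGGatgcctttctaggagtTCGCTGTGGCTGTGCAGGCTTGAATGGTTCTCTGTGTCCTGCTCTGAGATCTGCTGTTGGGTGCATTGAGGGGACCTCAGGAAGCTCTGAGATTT
WT-only peak near Vmn2r-ps105, chr13:66588911-66589210: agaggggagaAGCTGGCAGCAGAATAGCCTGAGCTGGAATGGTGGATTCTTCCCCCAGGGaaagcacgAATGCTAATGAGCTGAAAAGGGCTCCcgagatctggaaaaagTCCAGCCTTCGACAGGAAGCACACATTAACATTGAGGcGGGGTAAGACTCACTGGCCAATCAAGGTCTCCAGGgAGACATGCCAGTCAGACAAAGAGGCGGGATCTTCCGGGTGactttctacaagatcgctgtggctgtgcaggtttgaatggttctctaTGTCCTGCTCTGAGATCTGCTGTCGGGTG
Spen KO clone 3-only peak near Olfr836, chr9:18897738-18898037: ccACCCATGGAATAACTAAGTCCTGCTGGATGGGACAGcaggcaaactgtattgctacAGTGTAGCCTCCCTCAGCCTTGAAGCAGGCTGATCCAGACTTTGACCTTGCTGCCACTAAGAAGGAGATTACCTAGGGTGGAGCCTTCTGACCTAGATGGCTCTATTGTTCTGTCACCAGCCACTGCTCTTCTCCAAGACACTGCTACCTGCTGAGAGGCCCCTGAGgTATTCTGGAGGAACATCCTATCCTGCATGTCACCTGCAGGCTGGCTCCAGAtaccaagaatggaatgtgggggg
Spen KO clone 3-only peak near Olfr820, chr10:129442321-129442620: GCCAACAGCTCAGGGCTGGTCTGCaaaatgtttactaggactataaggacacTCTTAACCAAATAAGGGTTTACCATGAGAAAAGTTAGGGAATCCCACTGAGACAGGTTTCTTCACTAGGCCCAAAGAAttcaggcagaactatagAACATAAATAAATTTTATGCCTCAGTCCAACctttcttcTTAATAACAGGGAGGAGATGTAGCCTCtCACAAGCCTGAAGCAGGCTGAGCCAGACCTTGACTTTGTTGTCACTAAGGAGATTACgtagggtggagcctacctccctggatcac
Spen KO clone 3-only peak near Olfr891, chr9:37975890-37976189: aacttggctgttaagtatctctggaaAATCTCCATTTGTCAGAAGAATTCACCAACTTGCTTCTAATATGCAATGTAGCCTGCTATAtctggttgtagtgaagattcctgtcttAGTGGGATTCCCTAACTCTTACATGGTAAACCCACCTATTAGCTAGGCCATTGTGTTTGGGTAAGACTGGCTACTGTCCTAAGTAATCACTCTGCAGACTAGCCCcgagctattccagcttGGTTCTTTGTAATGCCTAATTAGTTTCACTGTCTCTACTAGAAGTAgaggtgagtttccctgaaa
These lines show how alike copies at different sites can be. Over 244 bp, the Vmn2r57 sequence, from a Spen KO clone 3-only peak, and the Vmn2r58 sequence, from a WT-only peak, were 89.3% identical on opposite strands. The most frequent 24-base sequence in each of them occurred 6976 times in the genome, and both were GC-rich (67.7% and 64%) with 18 CpG dinucleotides. The Vmn2r-ps100 and Vmn2r-ps105 sequences, from a shared and a WT-only peak of chromosome 13, were 93.7% identical over 268 bp, yet their most frequent 24-base sequence occurred only 57 and 32 times. The Olfr836 and Olfr820 sequences matched each other over 84 bp at 83.3% identity.

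Peaks were sparser near the receptors than elsewhere in both lists. The territories held 5.43 WT peaks per Mb (4.84 to 6.06) against 9.15 (9.03 to 9.28) in the other autosomal sequence. For Spen KO clone 3 the values were 6.41 (5.78 to 7.10) and 9.46 (9.33 to 9.58). The territories also held fewer other coding genes, 4.86 against 8.44 per Mb. Sequence over 10 kb from another coding transcription start site (TSS) made up 90.9% of the territories and 82.7% of the other autosomal sequence. Per Mb of such distal sequence the WT list had 3.61 peaks in the territories (3.12 to 4.16) and 4.83 elsewhere (4.73 to 4.93), and the Spen KO clone 3 list had 4.98 (4.40 to 5.62) and 5.62 (5.52 to 5.73). Distal peaks were thus sparser in the territories in WT, and in Spen KO clone 3 the value elsewhere lay at the upper bound of the territories' interval.

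In the Spen KO clone 3 list, 122 of the 371 member peaks (32.9%, 28.3 to 37.8) overlapped no WT peak. Over all autosomal peaks of that list the share was 28.4%, and over the 22086 peaks away from receptors it was 28.3% (27.8 to 28.9). In the WT list, 65 of 314 member peaks (20.7%, 16.6 to 25.5) overlapped no Spen KO clone 3 peak, against 26.0% of all autosomal WT peaks and 26.1% (25.5 to 26.7) of those away from receptors. The member share was therefore near the background in the Spen KO clone 3 list, whose value lies at the lower bound of the members' interval, and below it in the WT list. The other 249 peaks of each list were shared. Set side by side, there were 1.88 Spen KO clone 3-only peaks for each WT-only peak near receptors (1.39 to 2.53), and 1.12 (1.08 to 1.16) away from them. Within 10 kb of another coding TSS the ratio was below 1 in both sets, 0.484 (15 against 31 peaks, 0.264 to 0.888) near receptors and 0.711 (0.673 to 0.752) away from them.

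All 3 receptor families gave similar shares in the Spen KO clone 3 list. Found in that list only were 78 of 236 peaks nearest to an Olfr gene (33.1%, 27.4 to 39.3), 18 of 53 nearest to a Vmn1r gene (34%, 22.7 to 47.4) and 26 of 82 nearest to a Vmn2r gene (31.7%, 22.6 to 42.4). In the WT list the WT-only peaks were 48 of 206 (23.3%, 18 to 29.5), 5 of 39 (12.8%, 5.60 to 26.7) and 12 of 69 (17.4%, 10.2 to 28.0), with intervals that overlap between families.

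The peaks were rarely at receptor promoters. Of 371 Spen KO clone 3 member peaks, 6 had their midpoint within 1 kb of a receptor TSS, as had 4 of the 314 WT peaks, and by gene these were 6 and 4 of the 1678 receptors. Positions within 1 kb of a receptor TSS made up 6.17% of the territories. Receptor bodies were overlapped by 13 of the 249 shared peaks (coordinates of Spen KO clone 3), by 8 of the 122 Spen KO clone 3-only peaks and by 1 of the 65 WT-only peaks. By gene, 632 receptors had a Spen KO clone 3 peak within 50 kb of their TSS and 499 had a WT peak there, and within 5 kb it was 57 and 42.

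Among those few, 4 receptors had a shared peak at the TSS. At Olfr658, an olfactory receptor of chromosome 7, the peak (chr7:111795310-111796003 in the Spen KO clone 3 list) scored 27.3 and 20.9 in the 2 replicates of Spen KO clone 3 and 29.1 and 15 in those of WT, and its midpoint lay in the exon 163 bp downstream of the TSS. Scores here are on the scale of the lists, which is not named, so they rank peaks within a list only. At the vomeronasal receptor Vmn1r90 the replicates gave 14.1 and 16 in Spen KO clone 3 and 16.6 and 22.0 in WT, 135 bp upstream of the TSS by the midpoint of the Spen KO clone 3 peak (chr7:15208179-15208922). The pseudogene Vmn2r-ps19 had values of 17.1 and 18.3 in Spen KO clone 3 and 21.8 and 18.1 in WT. The pseudogene Olfr336-ps1 had 31.8 and 23.8 in Spen KO clone 3 and 25 and 32.5 in WT. As percentiles of their lists, Spen KO clone 3 first, the 4 peaks ranked at 74.2 and 60.7 (Olfr658), 32.5 and 49.5 (Vmn1r90), 49.1 and 52.3 (Vmn2r-ps19) and 82.3 and 78.3 (Olfr336-ps1), so none was near the top of either list.

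Spen KO clone 3-only peaks lay at the TSS of 2 receptors, and no WT-only peak did. At Olfr1069-ps1, a pseudogene on chromosome 2, the peak (chr2:86304796-86305208) had replicate values of 17.3 and 14.8 and ranked at percentile 38.9 of its list, with the nearest WT peak 21.8 kb away. At Olfr544 the peak (chr7:109633355-109633716) had values of 7.59 and 7.48, percentile 1.52, and an irreproducible discovery rate of 0.0488, just under the limit of the lists, with a WT peak 4.98 kb away. Both ranked below the median of the list.

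By their medians, Spen KO clone 3-only peaks lay farther from other coding genes than shared and WT-only peaks did. The rule for members holds the distance to a receptor body within 50 kb but does not limit the distance to other genes. Class differences in distance to receptors and to other genes are therefore not compared in size. The median distance from the midpoint to the nearest receptor TSS was 12 kb for Spen KO clone 3-only peaks (9.97 to 16.9), 18 kb for shared peaks (14.7 to 21.1) and 19.2 kb for WT-only peaks (13.1 to 26.2), and 10.3 kb for all positions of the territories. In the same order, the median distance to the nearest other coding TSS was 120 kb (74.4 to 161), 34.4 kb (20.3 to 49.1) and 12.1 kb (2.96 to 31.4), and 120 kb for all positions. Within 50 kb of receptors the median of Spen KO clone 3-only peaks thus equalled that of the territories, while shared and WT-only peaks sat nearer to other genes. The medians depend on the window: with 10 kb they were 132, 100 and 57.2 kb, and with 100 kb they were 62.1, 9.75 and 11.6 kb, where the order of shared and WT-only peaks turned with overlapping intervals. The 5 WT-only peaks at or above the median score of their list had a median of 47.0 kb (0.011 to 96.6). Close to other promoters the spread was not that of the territories, since 6.56% of Spen KO clone 3-only peaks (3.36 to 12.4) and 1.12% of territory positions lay within 1 kb of another coding TSS. Away from receptors Spen KO clone 3-only peaks were likewise the farthest, with 26.0 kb for peaks of Spen KO clone 3 alone and 8.06 kb for those of WT alone, but shared peaks were nearest there, at 4.04 kb.

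**Figure D1:**
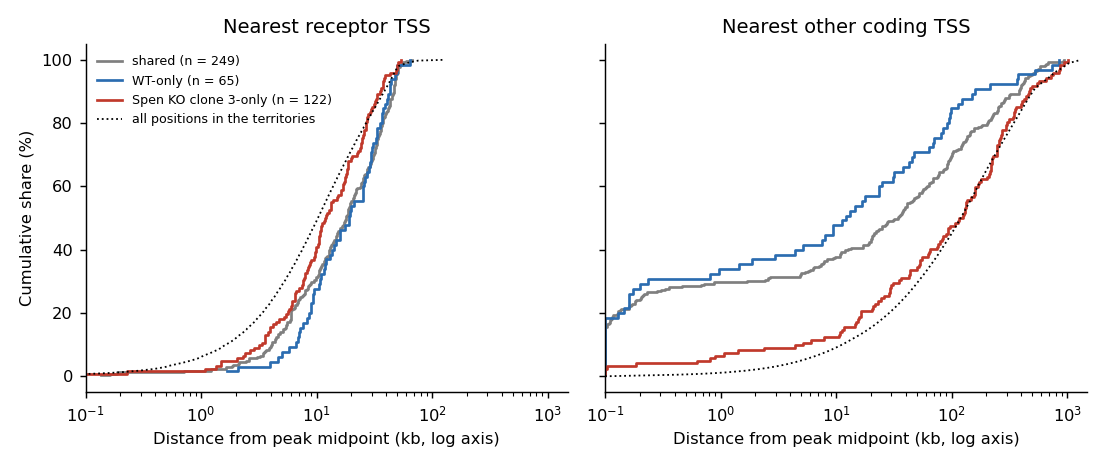
Cumulative share of chemoreceptor peaks by distance from the peak midpoint to the nearest receptor TSS (left) and to the nearest other coding TSS (right), in kb on a log axis, with values under 0.1 kb drawn at 0.1; the dotted line gives positions every 500 bp along the territories. On the right the Spen KO clone 3-only curve (median 120 kb) runs near the dotted line, and the shared (34.4 kb) and WT-only (12.1 kb) curves lie to its left.

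Promoters of other genes were not more frequent among members, beyond counting error, than in the same classes elsewhere. Within 1 kb of another coding TSS were 74 of 249 shared peaks (29.7%, 24.4 to 35.7), 22 of 65 WT-only peaks (33.8%, 23.5 to 46.0) and 8 of 122 Spen KO clone 3-only peaks (6.56%, 3.36 to 12.4). Elsewhere the shares were 45.4%, 33.5% and 17.2%. The members were thus lower in the shared and Spen KO clone 3-only classes and alike in the WT-only class. Of the 5 shared peaks of highest score in Spen KO clone 3, 3 were of this kind. They lay 161 bp from the TSS of Ppp2r1a, the scaffold subunit of protein phosphatase 2A, 47 bp from that of the claudin gene Cldn25 and 116 bp from that of Fam160a2. At Ppp2r1a the replicates gave 64 and 68.7 in Spen KO clone 3 and the mean in WT was 67.0, so these promoters ranked near the top of both lists (percentiles 99.3 and 99.1).

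When peaks were compared at like distance from other coding genes, members and other autosomal peaks had similar Spen KO clone 3-only shares. Within 1 kb of another coding TSS the share was 9.76% (8 of 82, 5.03 to 18.1) near receptors and 13.0% (12.3 to 13.8) elsewhere. At 1 to 10 kb it was 25.9% (7 of 27, 13.2 to 44.7) and 34.9% (33.2 to 36.6), the widest gap, inside the members' interval. At 10 to 50 kb it was 35.6% (26 of 73, 25.6 to 47.1) and 34.9% (33.6 to 36.2), and over 50 kb it was 42.9% (81 of 189, 36.0 to 50) and 41.4% (40.1 to 42.7). The WT-only share over 50 kb was 14.8% (19 of 128, 9.71 to 22.0) near receptors against 23.2% (22.0 to 24.5) elsewhere, and in the other distance classes the members' interval held the value of the other peaks. The lower WT-only share of distal members was the difference that remained at like distance. There, 4.26 Spen KO clone 3-only peaks stood against each WT-only peak near receptors (2.60 to 6.99) and 2.33 (2.16 to 2.51) elsewhere.

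**Figure D2:**
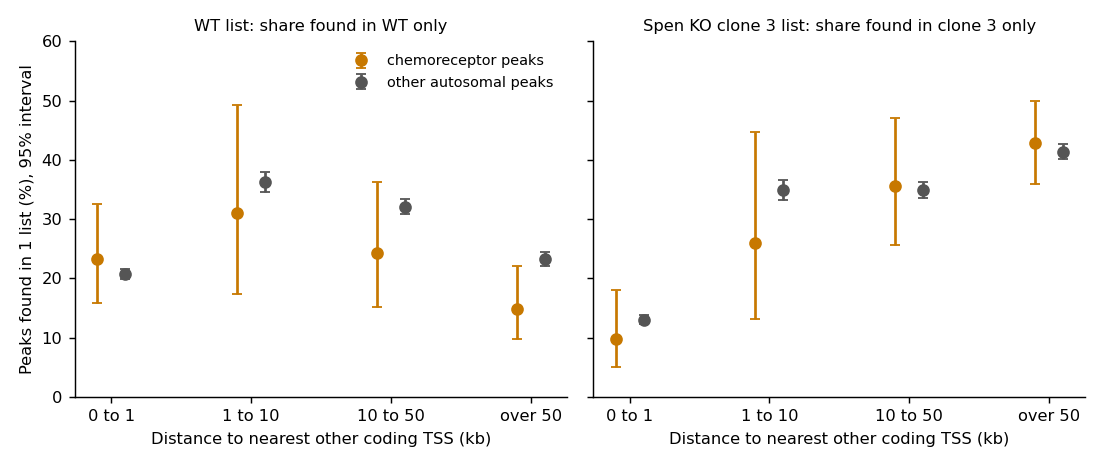
Share of peaks found in 1 list (y axis, %, points with 95% Wilson intervals) by distance to the nearest other coding TSS (x axis, kb) for chemoreceptor and other autosomal peaks, in the WT list (left) and the Spen KO clone 3 list (right). In the right panel both sets climb from about the same value near promoters to 42.9% and 41.4% over 50 kb; in the left panel the members are lower over 50 kb, at 14.8% against 23.2%.

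Within the territories 84 of the 122 Spen KO clone 3-only peaks lay between receptors (68.9%, 60.2 to 76.4). The share of territory sequence that lies there was not counted, so this is not compared with a background. Of the 197 Spen KO clone 3 peaks between the outermost receptors of a territory, 84 (42.6%, 35.9 to 49.6) were found in that list only, against 38 of 174 (21.8%, 16.3 to 28.5) in the flanks outside them. The WT-only shares were 24 of 139 (17.3%, 11.9 to 24.4) and 41 of 175 (23.4%, 17.8 to 30.2), in the opposite order with overlapping intervals. Flanks hold more other genes, but over 50 kb from another coding TSS the Spen KO clone 3-only share was still 45.9% between receptors (72 of 157, 38.3 to 53.7) and 28.1% in the flanks (9 of 32, 15.6 to 45.4), where the intervals overlap. Other autosomal peaks at that distance were at 41.4%, a value inside both intervals, so at like distance the peaks between receptors were near the background. In territories of 5 or more receptors 96 of 265 Spen KO clone 3 peaks (36.2%, 30.7 to 42.2) were found in that list only, and 34 of 203 WT peaks (16.7%, 12.2 to 22.5) in WT only. In territories of a single receptor it was 14 of 59 in each list (23.7%, 14.7 to 36.0).

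Many clusters held peaks of Spen KO clone 3 alone. Spen KO clone 3-only peaks outnumbered those of WT alone in 56 territories, WT-only peaks were more in 28, and 7 territories had as many of each. Away from receptors the former class was also the larger (ratio 1.12, 1.08 to 1.16), and no count by region was made there. No peak of either list lay in 36 territories with 88 receptors, 98 territories had peaks in both lists, 14 in Spen KO clone 3 only and 8 in WT only.

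The 2 territories with most Spen KO clone 3-only peaks had 10 each. The olfactory cluster from Olfr9 to Olfr827 (chr10:128376905-129698205, 58 receptors) had 17 peaks in Spen KO clone 3 and 8 in WT, of which 7 were shared and 1 was WT-only. The cluster from Vmn2r-ps62 to Vmn2r79 (chr7:91908938-94236478), which mixes 40 Vmn2r and 20 Olfr genes, had 16 peaks in Spen KO clone 3, and all 6 of its WT peaks were shared. The longest, from Olfr996 to Olfr1273-ps (chr2:85369372-90187016), spans 260 receptors in 4818 kb and had 19 peaks in Spen KO clone 3 and 14 in WT, with 7 found in the former only and 2 in the latter only. The cluster from Olfr543 to Olfr650-ps1 (chr7:109575287-111405523), which also overlaps 17 other coding genes, had most peaks in all, 19 and 17, and was more balanced, with 5 peaks in Spen KO clone 3 alone and 3 in WT alone. The cluster from Olfr151 to Olfr986 (chr9:37468857-40045679, 97 receptors) had 7 and 2.

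The territory with most WT-only peaks, from Olfr288 to Olfr279 (chr15:97966444-98378837), held 9 receptors and 7 other coding genes, and had 5 WT-only and 0 Spen KO clone 3-only peaks. The territory of Olfr221 alone (chr14:52604757-52705818) had 3 and 2, and the territory from Olfr522 to Olfr524, tied with it in WT-only peaks and in all peaks and named after its values were seen, had 3 and 0. The cluster of 106 receptors from Olfr543 to Olfr650-ps1 also had 3 WT-only peaks, so WT-only peaks were not limited to small territories.

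**Figure D3:**
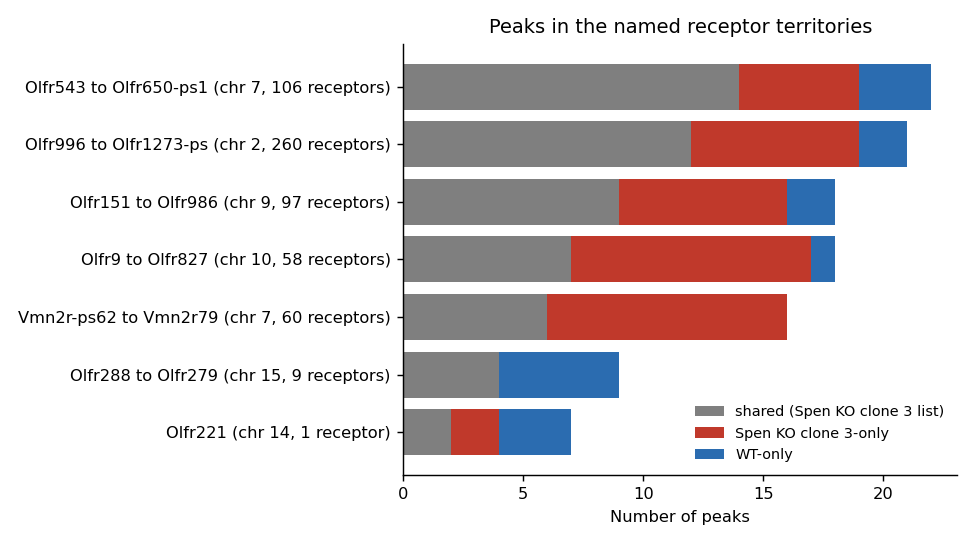
Number of peaks (x axis) in the named receptor territories (y axis, with chromosome and number of receptors), stacked by class, with shared peaks counted in Spen KO clone 3 coordinates. The Olfr9 to Olfr827 and Vmn2r-ps62 to Vmn2r79 clusters each hold 10 Spen KO clone 3-only peaks, with 1 and 0 WT-only peaks, and the Olfr288 to Olfr279 territory holds 5 WT-only peaks and no Spen KO clone 3-only peak.

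The Spen KO clone 3-only peaks near receptors were of moderate score. Their median score percentile was 36.3 (31.9 to 41.3), against 22.0 (21.2 to 22.7) for such peaks away from receptors. WT-only peaks had medians of 19.4 (12.7 to 26.8) near receptors and 20.1 (19.3 to 21.0) away from them. Among peaks at or above the median score of their list, 34 of 216 members (15.7%, 11.5 to 21.2) were Spen KO clone 3-only against 8.89% (8.37 to 9.43) of the others, and 5 of 157 (3.18%, 1.37 to 7.24) were WT-only against 6.34% (5.89 to 6.82). Of those 34 members, 16 (47.1%, 31.5 to 63.3) consisted mostly of repeated sequence. Scores were not compared at like distance from other coding genes or at like copy number. No WT peak lay within 50 kb of 66 of the 122 Spen KO clone 3-only peaks (54.1%, 45.3 to 62.7), against 36.0% (34.8 to 37.2) of such peaks away from receptors. Over 50 kb from another coding TSS the shares were 67.9% (57.1 to 77.1) and 66.2% (64.3 to 68.1), so at like distance they were near each other. For WT-only peaks, 20 of 65 (30.8%, 20.9 to 42.8) had no Spen KO clone 3 peak within 50 kb, against 24.7% (23.6 to 25.9) elsewhere. A peak of the other list lay within 1 kb of 7 of the 122 (5.74%, 2.81 to 11.4) and of 9 of the 65 (13.8%, 7.46 to 24.3), against 5.27% and 5.50% elsewhere.

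The strongest Spen KO clone 3-only peak lay 27.5 kb upstream of the TSS of Olfr836 (chr9:18897610-18898167), with replicate values of 31.5 and 38.9, percentile 91.4, no WT peak within 185 kb and 548 kb to the nearest other coding TSS, of Zfp317. The next, 11.9 kb upstream of Olfr820 (chr10:129442122-129442821), had values of 36.7 and 27.0, but a WT peak lay 0.495 kb from its edge. The peak in an intron of Vmn2r57 (chr7:48684613-48685149) had values of 29.8 and 15.9, a wide spread, and percentile 70.8. The peaks near Olfr891 (chr9:37975771-37976310) and Olfr513 (chr7:115903936-115904354) had values of 26.1 and 19.4, and of 17.0 and 28.0. Of these 5, only the Olfr513 peak fell in no sequence family, and their nearest other coding TSS was between 21.0 and 548 kb away.

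Of the 5 WT-only peaks of highest score, 2 lay at promoters of other genes. The first was 18 bp from the TSS of the zinc finger gene Zscan12 (chr13:21454516-21454913), in the flank of Olfr1367, with replicate values of 18.7 and 33.2 and percentile 72.3. Another lay 11 bp from the TSS of the zinc finger gene Zfp192 (chr13:21622741-21623216), with values of 17.6 and 24.4 and percentile 56.8. The others were near Vmn2r-ps105 (chr13:66588862-66589260, values 24.9 and 17.2), Vmn1r223 (chr13:23390487-23391444, values 18.1 and 22.6) and Vmn2r58 (chr7:49071130-49071620, values 21.1 and 19.6). Of the 5, 4 were on chromosome 13, and 1, near Vmn2r58, was made mostly of sequence repeated in the genome (94.9% of its 24-base sequences). Among the 5 highest of the Spen KO clone 3-only class it was likewise 1, the Vmn2r57 peak (99.8%), which is of the same sequence family.

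Shared peaks ranked somewhat higher in Spen KO clone 3 when they lay between receptors and far from other coding genes. Over all 249 shared members the median shift in score percentile, Spen KO clone 3 minus WT, was 2.48 (0.264 to 5.83), and 147 ranked higher in Spen KO clone 3, while over the 15825 shared peaks elsewhere it was -0.134 (-0.327 to 0.000628). Without chromosome 7 the members' shift was 0.72 (-0.721 to 4.27) and without the largest sequence family 1.49 (-0.0269 to 4.27), with intervals that hold 0. Between receptors the median shift was 12.4 (9.14 to 16.4), with 91 of 113 higher in Spen KO clone 3, and in the flanks it was -1.78 (-3.77 to -0.0687), with 56 of 136 higher. The shift between receptors was 14.4 (10.1 to 19.8, 72 of 85 higher) over 50 kb from another coding TSS and 2.25 (-1.74 to 14, 19 of 28 higher) nearer to one, where the interval holds 0. Over 50 kb from another coding TSS the shift was 12.3 (6.21 to 16.4) for members and 6.83 (6.20 to 7.51) for other peaks, and within 1 kb it was -2.03 (-5.57 to 0.296) and -2.88 (-3.20 to -2.58). By family it was 3.83 (0.309 to 8.84) for peaks nearest to Olfr genes, 9.56 (0.325 to 14) for Vmn1r and -0.473 (-2.44 to 1.75) for Vmn2r.

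**Figure D4:**
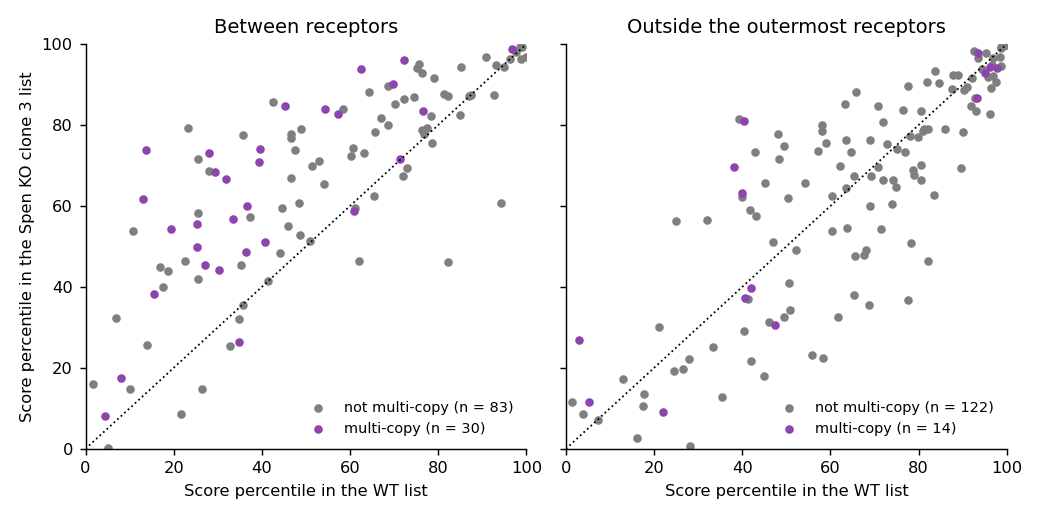
Score percentile of each shared chemoreceptor peak in the WT list (x axis) and in the Spen KO clone 3 list (y axis), between receptors (left) and outside the outermost receptors of a territory (right), with multi-copy peaks in purple and equal ranks on the dotted line. On the left 91 of 113 peaks lie above the line (median shift 12.4), and on the right 56 of 136 do (median shift -1.78).

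Repeated sequence was more frequent in all classes of member peaks than away from receptors. The term multi-copy is used for peaks in which 50% or more of the 24-base sequences had 10 or more copies in mm9. It applied to 44 of 122 Spen KO clone 3-only peaks (36.1%, 28.1 to 44.9), 44 of 249 shared peaks (17.7%, 13.4 to 22.9) and 11 of 65 WT-only peaks (16.9%, 9.72 to 27.8), against 16.8%, 5.66% and 3.76% of the same classes elsewhere. With 50 or more copies in place of 10 the members' shares were 30.3%, 12.4% and 9.23% (37, 31 and 6 peaks). L1Md_F is a mouse LINE-1 retrotransposon, and sequence matching it over 500 bp or more lay within 8 kb of 53 of the 122 (43.4%, 35.0 to 52.3), 67 of the 249 (26.9%, 21.8 to 32.7) and 14 of the 65 (21.5%, 13.3 to 33.0). For the same classes elsewhere the shares were 19.5%, 7.57% and 3.73%. Counted in bases and not in peaks, such matches covered 5.40% of the territories and 1.86% of the other autosomal sequence. Only uniquely mapped reads had been kept, and how far that limits peaks in repeated sequence was not tested.

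Within a copy class, members and other peaks had similar Spen KO clone 3-only shares. Of the multi-copy peaks of that list, 44 of 88 members (50%, 39.8 to 60.2) and 54.0% (51.7 to 56.2) of the others were found in it only. Of the peaks that were not multi-copy it was 78 of 283 (27.6%, 22.7 to 33.0) and 25.9% (25.3 to 26.5). In the WT list over all distances, 18% of multi-copy members (11 of 61, 10.4 to 29.5) were WT-only, against 19.1% of the other multi-copy peaks. Of peaks that were not multi-copy it was 21.3% of members (54 of 253, 16.7 to 26.8) and 26.5% of the others. Both values of the others lie inside the members' intervals. Over 10 kb from another coding TSS, the WT-only share of peaks that were not multi-copy was 17.8% (24 of 135, 12.2 to 25.1) for members and 29.3% (28.3 to 30.3) for the others, and that of multi-copy peaks 18.2% (10 of 55, 10.2 to 30.3) and 17.0% (14.7 to 19.5). The lower WT-only share of distal members was thus seen among peaks that were not multi-copy; whether the copy classes differ in it was not tested. The shift of shared multi-copy peaks was 21.5 percentile points (6.99 to 24.6) for 44 members and 12.7 (11.4 to 14.5) for 895 others, and without multi-copy peaks it was 0.72 (-0.451 to 4.11) for members.

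Sequence similarity grouped many of the members into families. A peak was placed in a family when it matched the family's representative, the peak with most matches among those not yet placed, with 80% identity or more along 100 bp or more. The largest family, to which the Vmn2r57 and Vmn2r58 sequences printed above belong, took 80 peaks over both lists on 13 chromosomes. Of its 56 Spen KO clone 3 peaks, 35 were found in that list only (62.5%, 49.4 to 74.0), while of its 24 WT peaks 3 were (12.5%, 4.34 to 31). Away from receptors, 813 of the 1300 Spen KO clone 3 peaks that match the same representative were found in that list only, again 62.5% (59.9 to 65.1), and 82 of 570 WT peaks (14.4%, 11.7 to 17.5). In this measure its values near receptors did not differ from those away from them beyond counting error. Of its 80 members 71 overlapped a match to L1Md_F, their median GC content was 63.5%, and the shared ones ranked higher in Spen KO clone 3 by a median of 23.4 percentile points (10.4 to 34.7, 18 of 21 higher), against 17.0 (15.4 to 18.7, 423 of 487 higher) away from receptors, a value inside the members' interval.

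In the genome the representative of this family, a peak near Olfr725 (chr14:50627734-50628683), had 192 matches in the territories. Of these, 24 (12.5%) overlapped a WT peak and 56 (29.2%) a Spen KO clone 3 peak. Elsewhere on the autosomes 567 of 3941 matches (14.4%) overlapped a WT peak and 1290 (32.7%) a Spen KO clone 3 peak. Without this family, 27.6% of the member peaks of the Spen KO clone 3 list (23.0 to 32.8) were found in that list only.

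The other families were smaller. Their counts below, like those of the largest family away from receptors, take every peak that matches the representative, also where the peak had been placed in another family, so that near and elsewhere are counted alike. The second, also largely over L1Md_F matches, had 22 Spen KO clone 3 peaks, 7 of them in that list only, and 17 WT peaks, 2 in WT only, against 33.8% and 3.37% of its peaks elsewhere. The third, that of the Olfr891 sequence, had 20 and 18 peaks, of which 2 and 0 were found in 1 list, against 14.5% and 9.22% elsewhere, and its peaks were AT-rich, with a median GC content of 40.9%. Shared peaks matching it ranked higher in Spen KO clone 3 in 15 of 18 cases, and in 159 of 194 elsewhere. The fourth had 4 of 17 and 0 of 15, against 36.3% and 6.90% elsewhere. The fifth, that of the Olfr836 sequence, had 7 of 16 and 0 of 9, against 38.2% (31.6 to 45.3) of 191 and 13.8% (8.99 to 20.5) of 138 peaks elsewhere. In the eighth, that of the Olfr820 sequence, 5 of 9 Spen KO clone 3 peaks (55.6%, 26.7 to 81.1) were found in that list only, against 22.4% (15.6 to 31.2) of 107 elsewhere, which lies below the members' interval. Only 7 of these 9 peaks had been placed in the family, and 4 of the 7 were found in that list only. Of the 8 largest families it was the only one whose Spen KO clone 3-only share elsewhere lay outside that interval. The seventh went the other way, with 1 of 5 Spen KO clone 3 peaks in that list only (20%, 3.62 to 62.4), against 57.5% elsewhere. Its WT-only share was 2 of 6 (33.3%, 9.68 to 70), against 9.33% elsewhere, which lies below the members' interval.

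The sixth family, of the Vmn2r-ps100 and Vmn2r-ps105 sequences, was confined to a single chromosome near receptors. All its members lay on chromosome 13 in the flanks of Vmn2r pseudogenes, and each of the 9 matches to it in the territories overlapped a WT peak and 8 a Spen KO clone 3 peak, against 16 and 20 of 61 elsewhere. Its strongest peak, near Vmn2r-ps100 (chr13:66051226-66051713), had replicate values of 87.0 and 80.9 in Spen KO clone 3, where it was the highest of all shared members, and ranked at percentile 99.7 there and 99.8 in WT. Of its 8 shared peaks 1 ranked higher in Spen KO clone 3 (median shift -1.73), as did 3 of 14 shared peaks matching it elsewhere (-2.89).

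**Figure D5:**
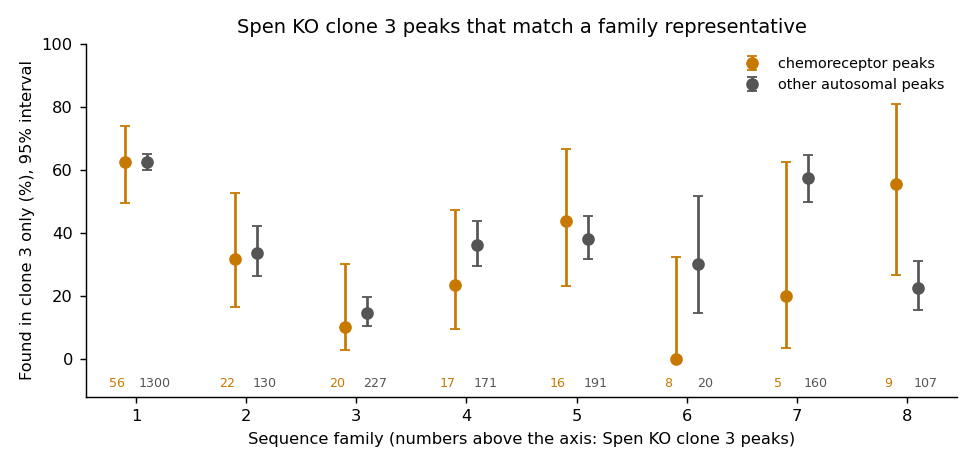
Share of Spen KO clone 3 peaks found in that list only (y axis, %, points with 95% Wilson intervals) among peaks that match the representative of each of the 8 largest sequence families (x axis), for chemoreceptor and other autosomal peaks, with the number of peaks given above the axis. In family 1 both sets are at 62.5%, and in families 2 to 7 the members' intervals hold the values of the other peaks; in family 8 the members are at 55.6% (26.7 to 81.1) and the other peaks lower, at 22.4%.

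Short motifs were searched in the 300 bases around each midpoint on both strands, with shared peaks in Spen KO clone 3 coordinates. The Oct4 octamer (ATGCAAAT), bound by a factor of pluripotent cells, was in 14 of 249 shared members (5.62%, 3.38 to 9.22), in 2 of 122 members of the Spen KO clone 3-only class and in 3 of 65 WT-only members, against 3.27%, 3.27% and 2.89% elsewhere. The Sp/Klf box (GGGGCGGGG), common in CpG-rich promoters, was in 13 of 249 shared (5.22%, 3.08 to 8.73), 0 of 122 Spen KO clone 3-only (0 to 3.05%) and 7 of 65 WT-only members (10.8%, 5.32 to 20.6), against 13.7%, 5.88% and 11.0% elsewhere. The Esrrb site (TCAAGGTCA) was in 1 shared member and in none of the other classes, against 0.55%, 1.23% and 0.484% elsewhere. The CTCF core consensus was in 2 of 249 shared (0.803%, 0.221 to 2.88), 0 of 122 Spen KO clone 3-only (0 to 3.05%) and 1 of 65 WT-only members (1.54%, 0.272 to 8.21), against 1.87%, 3.34% and 3.69% elsewhere. The value elsewhere lay outside the members' interval in 4 cases: above it for the Sp/Klf box in shared and Spen KO clone 3-only peaks and for the CTCF core in Spen KO clone 3-only peaks, and below it for the octamer in shared peaks. The tally depends on the coordinates: in those of WT the CTCF core was in 0 of 249 shared members (0 to 1.52%) against 1.88% elsewhere, also outside. Motifs were not compared at like distance from other coding TSS. None of these motifs contains another, and a match is only a run of letters.

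Promoter peaks were counted for the genes of the receptor pathway itself. Of 31 genes of olfactory signal transduction, receptor choice and its chromatin factors, 13 had a promoter peak in both lists (the X-linked Suv39h1 among them), 1 in WT only, 1 in Spen KO clone 3 only and 16 in neither. The share of all coding promoters with a peak was not counted, so whether these counts are unusual was not tested. Without a peak were Omp, the marker of mature olfactory neurons, Adcy3, Cnga4, Cngb1 and Ano2 of the odorant transduction cascade, the receptor chaperones Rtp1 and Rtp2, and the neurogenic factor Neurog1. Other signalling genes had a peak in both lists, with WT percentiles first: the vomeronasal channel Trpc2 (80.5 and 76.6), the G protein subunits Gnai2 (80.6 and 85.5) and Gnao1 (27.5 and 26.2), and the chaperone Reep1 (32.9 and 56.5). Gnal, the olfactory G protein subunit, had a peak in Spen KO clone 3 only, at percentile 15.8. Setdb1, a histone H3K9 methyltransferase, had one in WT only, at percentile 56.6. Lhx2 and Ebf1, which bind receptor enhancers in olfactory neurons, had a peak in both lists (percentiles 71.7 and 76.6 in WT, 73.5 and 82.6 in Spen KO clone 3), as had Cbx5 and Lbr, which take part in heterochromatin and its tethering to the nuclear envelope. The promoters of the broadly expressed chromatin factors Kdm1a, Ehmt1 and Ehmt2 also lacked a peak, so the lack of a listed peak does not show that a promoter was closed.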

How the data were processed

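ATAC-seq (transposase-accessible chromatin sequencing) had been done on 6 samples. According to the study's methods and the submitters' processing notes, reads were trimmed with cutadapt and mapped to mm9 with Bowtie2, unique proper pairs were kept and duplicates removed, and peaks were called with MACS2 on 2 technical replicates and filtered by irreproducible discovery rate, at most 0.05 in both lists. Tool versions are not given in the sources used here. The deposited lists give, per peak, a value for each replicate on an unnamed scale, the irreproducible discovery rate and the length. They give no read counts, so depth is unknown, and no test between lines was run.

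The score of a peak was the mean of its replicate values, used only as a rank (percentile) within its list. Peaks were compared with GENCODE vM1 gene models with Python 3.11.15 (pandas 2.3.3, SciPy 1.17.1, pysam 0.24.0). Distances run from the peak midpoint to the nearest TSS of any receptor transcript or any other protein-coding transcript; V1ra8, V1rd19 and V1rh19, older names of 3 vomeronasal receptors, counted as other genes. Promoters were 1000 bp upstream to 100 bp downstream of a coding TSS. Shares carry Wilson intervals, densities exact Poisson intervals, medians binomial order-statistic intervals, and ratios the Wilson interval of the share behind them. Copies of 24-base sequences were counted over the mm9 genome. Families and L1Md_F matches came from BLAST+ 2.17.0 (80% identity, e-value up to 1e-10). The functions were tested on simulated data. Alternatives were the window, gene type, overlap, score, list length, repeat and chromosome choices given under the processing section.

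Peaks named were the 5 of highest score in each class and all within 1 kb of a receptor TSS; territories named were the 5 with most peaks and the 3 with most peaks of each list alone (ties by total, then start coordinate). Representatives of sequence families were added after seeing the data, as were the splits by sequence family, position between receptors and number of receptors. The members and gene lists were chosen with earlier results of these data known. One gene of the pathway list is not reported here.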

Additional observations from a re-analysis of the deposited data

Results flagged for a closer look

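On the X chromosome, whose peaks were not members, the Spen KO clone 3 list had 2 peaks, and the WT list 0, within 50 kb of the 10 X-linked receptor genes. This is a count of 2 against 0 and gives no level of signal in WT. The peak 17.2 kb from Olfr1321 (chrX:47098420-47098841) had replicate values of 16.2 and 13.7 and percentile 31.9, and none of its 24-base sequences was repeated. The peak 10.5 kb from Olfr1323 (chrX:47351020-47351948) had values of 19.4 and 18.1 and percentile 54.4, and 93.6% of its 24-base sequences were repeated. The lists held 1199 and 1000 X-linked peaks in Spen KO clone 3 and WT. The inducible Xist transgene is on this chromosome and the doxycycline state of the lists is not stated; the part of either was not tested.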

How the results depend on the processing

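The main values were 32.9% of member peaks found in Spen KO clone 3 only, 20.7% found in WT only, a ratio of 1.88 and a median rank shift of 2.48 percentile points. Of 52 alternative values of these 4 results, 38 stayed within the main interval; the ratio and the shift kept their direction, and shares have none. With only peaks that overlap a receptor body (21 and 15 peaks) the shares were 38.1% and 6.67% and the ratio 8. With a window of 10 kb they were 38.1%, 16.5% and 3.05, and the rank shift was 11.3. With peaks at or above the median score they were 15.7%, 3.18% and 6.80. Leaving out multi-copy peaks gave a Spen KO clone 3-only share of 27.6% and a ratio of 1.44, and a window of 100 kb a ratio of 1.58. Of the alternatives chosen after seeing the data, territories of 5 or more receptors gave a ratio of 2.82 and a shift of 7.33, and leaving out the largest sequence family gave a share of 27.6% and a ratio of 1.40; with the 3 older-named genes as receptors all 4 results stayed within the main interval. The rank shift over all members was 0.72 without chromosome 7 (-0.721 to 4.27), 0.72 without multi-copy peaks (-0.451 to 4.11), 1.49 without the largest family (-0.0269 to 4.27) and 2.01 for peaks that overlap a receptor body (-4.56 to 13.5), all with intervals that hold 0. Without chromosome 7 the 2 shares and the ratio stayed within the main interval. Of 99 alternative values of distances, multi-copy shares and densities, 66 stayed within their interval; of the other 33, 16 came with a window of 10 or 100 kb and 8 with peaks that overlap a receptor body, where the set of peaks itself differs.

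No paired analysis was possible because each line has 1 list that joins its replicates, and leaving out a replicate was not run for the same reason. A peak absent from a list is one that did not pass the reproducibility limit there, which is not the same as closed chromatin, and the depth of the libraries is unknown.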

Other observations

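Other chemoreceptor and tandem gene families, named in a list chosen with earlier results known, gave values for comparison. Near the trace amine-associated (Taar), formyl peptide (Fpr-rs) and bitter taste (Tas2r) receptor genes, and not near an olfactory or vomeronasal receptor, there were 17 Spen KO clone 3 peaks, of which 2 were found in that list only (11.8%, 3.29 to 34.3), and 16 WT peaks, of which 1 was found in WT only (6.25%, 1.11 to 28.3). Near 15 other tandem families, which include defensins, killer cell lectin-like receptors, cytochromes P450, serpins, keratin-associated proteins and major urinary proteins, 71 of 213 Spen KO clone 3 peaks were found in that list only (33.3%, 27.3 to 39.9) and 41 of 184 WT peaks in WT only (22.3%, 16.9 to 28.8). The shares near the tandem families are close to those of the olfactory and vomeronasal receptors, 32.9% and 20.7%, and the intervals of all 3 sets overlap.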
